A study of Mus musculus with 8 samples.

Results

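AMPA receptors are the ion channels that carry most fast excitatory transmission between cortical neurons. Each channel is a tetramer of the pore-forming subunits GluA1 to GluA4, which are encoded by Gria1, Gria2, Gria3 and Gria4. Around this core sit auxiliary proteins: the transmembrane AMPA receptor regulatory proteins (TARPs), the cornichons and GSG1L, which set how many receptors reach the surface, where they are held and how fast they open, close and desensitize. The genes described here are these 4 subunits, the TARPs Cacng2, Cacng3 and Cacng8, the cornichons Cnih2 and Cnih3, and Gsg1l. They were chosen by name, with earlier results of these data known, and make up 10 of the 10588 genes tested among the 28662 transcripts in the deposited table. All 10 passed the filter on low values in every one of the 8 mice.

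RNA came from the right cortex of C57BL/6 mice. The 4 bigenic mice carried Camk2a-tTa, in which the Camk2α promoter drives the tetracycline transactivator in forebrain neurons, together with a tetracycline-responsive human TDP-43 whose nuclear localization signal is mutated (ΔNLS-hTDP-43). The 4 nontransgenic controls carried neither transgene. Both groups received doxycycline, which holds the transgene off, until 28 days of age, and both were taken 10 days after it was removed. The comparison asks which cortical transcripts differ between mice with both transgenes and mice with neither. No mouse carried a single transgene, so effects of the transactivator and of ΔNLS-hTDP-43 cannot be told apart. Values are normalized counts, meaning reads on the exons of a gene scaled by a factor for each mouse that the sources used here do not describe, and log2(fold changes) are differences in mean log2(normalized count + 1), bigenic minus nontransgenic. Mice are numbered 1 to 4 within a group in the order of the columns. That order pairs no bigenic mouse with a control.

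Column totals lay between 20.1 M and 21.98 M normalized counts. One read was worth between 0.648 and 2.068 normalized counts, which puts the depth on genes at about 10.6 M to 31.9 M reads per mouse. Bigenic mouse 2 was the shallowest library and stood apart from the other bigenic mice on the principal components of all genes tested, with 46.0 against 12.8 to 15.1 on the first and -22.3 against 15.0 to 15.9 on the second. Nontransgenic mouse 4 departed from the other controls in the same direction, though less far. It was at -14.0 against -26.5 to -21.3 on the first component and -16.4 against -7.0 to 1.0 on the second. Transcript uc999vvf.1, to which the files give no gene name and which may stand for the transgene, was at 35890 ± 5703 normalized counts (SD, n = 4) in bigenic mice and 29.0 ± 34.5 in nontransgenic mice. Tardbp, the mouse gene for TDP-43, was at 5180 ± 249 against 6538 ± 420 (log2(fold change) -0.33, adjusted p = 0.00645, limma). Across all genes 35.9% were called at an adjusted p below 0.05 (3796 of 10588), 20.5% higher and 15.4% lower in bigenic mice, so a single call is not unusual in these data.

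The 4 subunits are close relatives, and their kinship is visible in the codons that form the narrowest part of the channel. At one position of this pore loop, the Q/R site, RNA editing of the Gria2 transcript turns a glutamine codon into one read as arginine, and receptors that hold edited GluA2 pass little calcium. The following stretches of 27 coding bases, read 5′ to 3′ from the mm9 genome on the strand of each gene, are shown because that editing acts here. Capitals mark the Q/R codon.
Gria1 (chr11:57056584-57056610, plus strand): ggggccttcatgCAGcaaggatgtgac
Gria2 (chr3:80510821-80510847, minus strand): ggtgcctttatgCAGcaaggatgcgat
Gria3 (chrX:38963430-38963456, plus strand): ggtgcttttatgCAGcaaggatgtgat
Gria4 (chr9:4464125-4464151, minus strand): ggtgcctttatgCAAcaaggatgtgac
The genome encodes glutamine (Q) at this codon in all 4 genes. Gria2 and Gria3 differ at 2 of the 27 bases, and Gria1 and Gria2 at 4. Whether the transcripts were edited was not analysed here, because the files hold a value per gene and no bases. Despite this likeness few exact windows are shared. Between 99.16% and 100% of the 50-base windows in the exons of Gria1 to Gria4 occur once in the genome. No more than 13 windows of any subunit are shared with another. Windows were matched exactly, whereas the authors' mapping allowed mismatches, so how well mapped reads separate these genes was not tested.

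Of the 10 genes, 5 fell in bigenic mice (Gria1, Gria3, Cacng3, Cnih2 and Gsg1l), 1 rose (Cacng2) and 4 did not pass the test (Gria2, Gria4, Cacng8 and Cnih3). Their share called is 60.0%, against 35.9% of all genes. The same 6 genes had groups that did not overlap, against 39.0% of all genes. The median log2(fold change) of the 10 was -0.19, against 0.03 over all genes tested. Without bigenic mouse 2 the count was 6 lower and 1 higher, and the share of all genes called was then 45.6%. Gria3 and Gsg1l moved most. Their changes were larger in size than those of 97.4% and 98.4% of all genes tested, and 150 and 93 genes fell at least as far. In whole cortex, fewer cells of a type and less RNA per cell cannot be told apart.

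**Figure D1:**
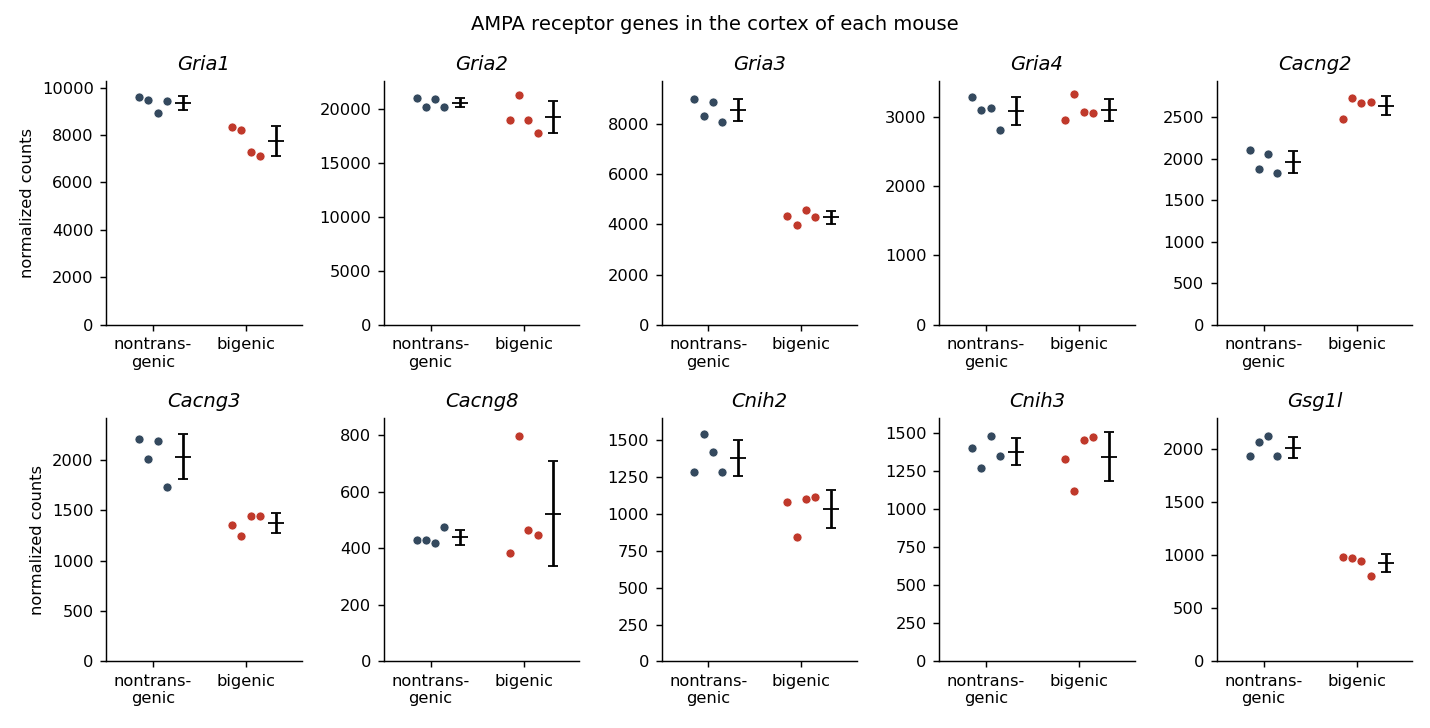
Normalized counts (vertical axes, each starting at 0) of the 10 AMPA receptor genes in each nontransgenic (blue) and bigenic (red) mouse, with the mean and SD of each group in black. Gria3 and Gsg1l lie in bigenic mice far below their control level (ratios of means 0.5005 and 0.461) with no overlap, Cacng2 lies above it, and a single bigenic mouse at 798 sets the spread of Cacng8.

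GluA3, the product of Gria3 (uc009tam.2), forms receptors with GluA2 that are delivered to synapses constitutively. Its transcript measured 4326, 3962, 4583 and 4298 normalized counts in bigenic mice, against 8991, 8331, 8884 and 8099 in controls. The highest bigenic value lies far below the lowest control value. The means were 4292 ± 254.8 and 8576 ± 430 (SD, n = 4), a ratio of 0.5005, with a log2(fold change) of -0.999 (SE 0.07, 95% interval -1.16 to -0.84, adjusted p = 2.46e-05, limma). The fall passed with each mouse left out in turn, at an adjusted p of at most 0.000277. Gria3 lies on chromosome X (mm9 chrX:38754031-39031778, plus strand). The authors report mostly male mice, in the same number in each group. The columns name no sex, so sex was not in the fit and its part in these values was not tested.

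GluA1, encoded by Gria1 (uc007izr.2, chr11:56824889-57143746, plus strand), is the subunit most closely tied to activity-dependent insertion of receptors. Normalized counts of Gria1 were 8357, 8223, 7305 and 7130 in bigenic mice and 9611, 9462, 8923 and 9453 in controls. All bigenic values lie below all control values, but the nearest of them are much closer than for Gria3. The means of 7754 ± 626 and 9362 ± 302 gave a log2(fold change) of -0.27 (SE 0.08, 95% interval -0.44 to -0.11, adjusted p = 0.0183, limma). This call rests on single libraries. It was lost without bigenic mouse 3 (adjusted p = 0.0506, limma), bigenic mouse 4 (0.0562), nontransgenic mouse 1 (0.0545) or nontransgenic mouse 2 (0.0541), while the log2(fold change) stayed between -0.31 and -0.24.

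GluA2, encoded by Gria2 (uc008pob.1, chr3:80488858-80606713, minus strand), is the subunit that limits calcium entry. Its normalized counts were 19004, 21355, 19012 and 17764 in bigenic mice and, in controls, 21047, 20215, 20939 and 20222. The groups overlap through bigenic mouse 2, which holds the highest value of all 8. Gria2 did not pass the test (19284 ± 1500 against 20606 ± 449, log2(fold change) -0.10, 95% interval -0.26 to 0.06, adjusted p = 0.305, limma). Without bigenic mouse 2 the value was -0.15 and passed (adjusted p = 0.0410, limma), with limma's array weights it was -0.16 (adjusted p = 0.00827), and after quantile normalization it was 0.09, of the opposite sign (adjusted p = 0.271, limma).

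GluA4, encoded by Gria4 (uc009obp.2, chr9:4417899-4796234, minus strand), has fast kinetics and is prominent in parvalbumin interneurons. It was measured at 2960, 3325, 3072 and 3056 normalized counts in bigenic mice and at 3290, 3103, 3131 and 2811 in nontransgenic mice. The groups overlap over most of their ranges. The log2(fold change) was 0.01 (95% interval -0.16 to 0.18, adjusted p = 0.926, limma), so a change beyond about 0.18 in either direction lies outside the interval, and the sign turned with array weights and quantile normalization.

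**Figure D2:**
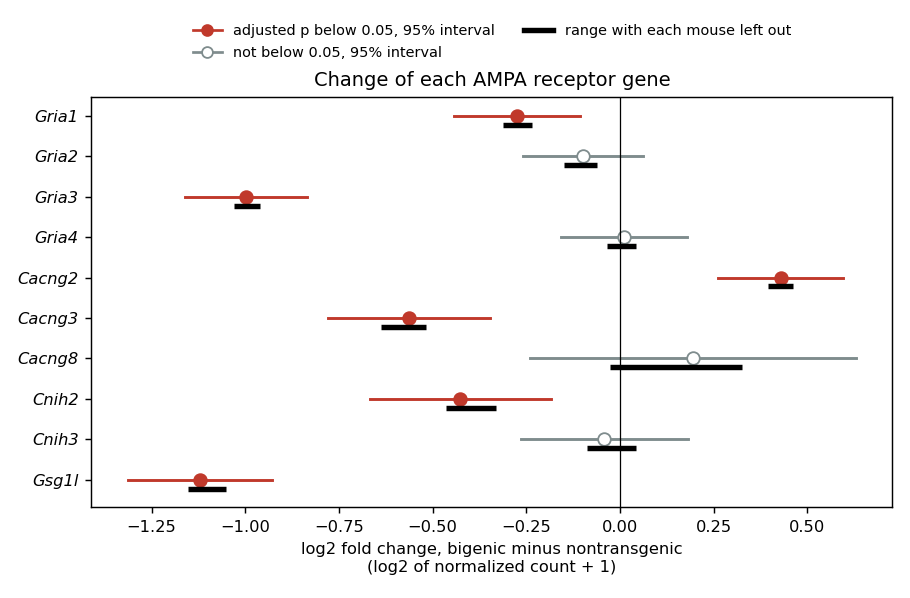
log2(fold change) of each of the 10 genes, bigenic minus nontransgenic (horizontal axis), with its 95% interval (coloured line, filled red points for an adjusted p below 0.05) and the range obtained when each of the 8 mice is left out in turn (black bar). The ranges of Gria3, Gsg1l, Cacng3, Cnih2, Gria1 and Cacng2 stay on one side of 0, as does that of Gria2, while those of Gria4, Cacng8 and Cnih3 cross it.

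The makeup of the subunit pool also differed between the groups. Summed over the subunits, normalized counts were between 32248 and 36865 in bigenic mice and between 40585 and 42939 in controls. To compare levels between genes, values were divided by the length of all exons of each gene, and each subunit's share of the sum was taken per mouse. These shares are given as a description, without a test. Gria2 made up 55.6% ± 1.27 (SD, n = 4) in bigenic mice and 50.4% ± 0.55 in controls. Gria1 was second in order at 25.7% ± 1.23 and 26.4% ± 0.96, ranges that overlap. The share of Gria3 was 8.77% ± 0.91 against 14.8% ± 0.46, with bigenic mice between 7.49 and 9.49 and controls between 14.3 and 15.3. Gria4 stood at 9.94% ± 0.44 against 8.37% ± 0.38, a larger share of a smaller sum. Gria3 ranked above Gria4 in each control mouse, and below it in each bigenic mouse.

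The rank of Gria3 depends on the length used. Its annotated exons cover 9859 bases in all but 5206 in the longest transcript, and on that second length its share was 14.9% in bigenic mice and 23.99% in controls, still above Gria4 (10.3% and 8.25%) and, in controls, next to Gria1 (24.6%). On either length the share of Gria3 was lower in each bigenic mouse than in any control. As a ratio that needs no length to be compared between groups, Gria3 over Gria2 was 0.224 ± 0.0265 in bigenic mice and 0.416 ± 0.0122 in controls, and Gria1 over Gria2 was 0.403 ± 0.026 and 0.455 ± 0.0197.

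**Figure D3:**
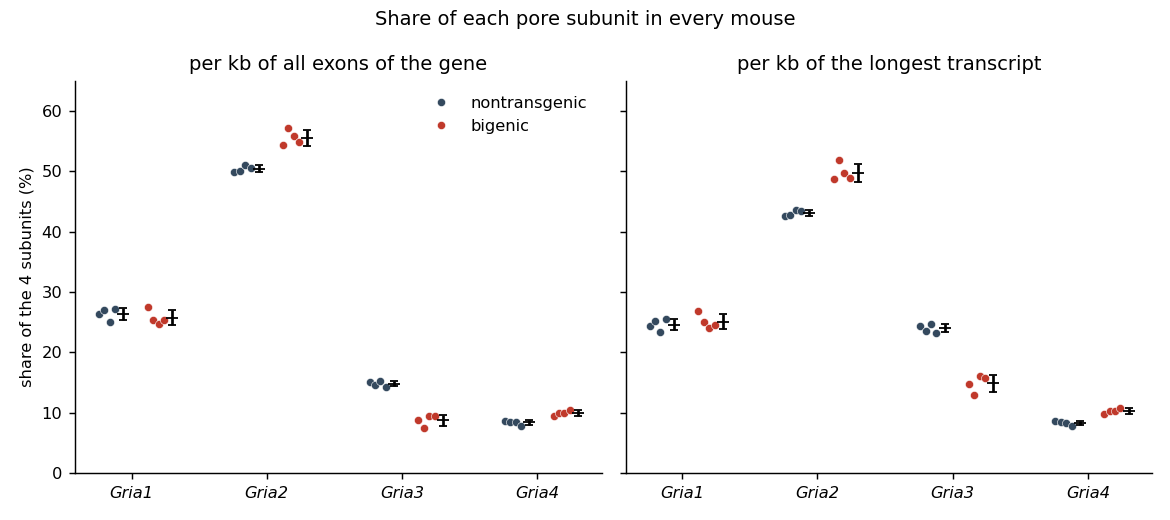
Share of each pore subunit (%) in the summed normalized counts per kb of Gria1 to Gria4, for each nontransgenic (blue) and bigenic (red) mouse, with mean and SD in black; the left panel divides by the length of all exons and the right panel by the longest transcript. The share of Gria3 is lower and that of Gria2 higher in bigenic mice in both panels, while the level given to Gria3 depends on the length.

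The TARPs bind the receptor core, bring it to the surface and anchor it to the postsynaptic scaffold. The 3 measured here differed in direction. Stargazin, or TARP γ-2, is the product of Cacng2 (uc007wop.2, chr15:77822178-77950458, minus strand), and γ-3 is that of Cacng3 (uc009jov.2, chr7:129815258-129912905, plus strand). Cacng2 was at 2485, 2734, 2670 and 2685 normalized counts in bigenic mice and at 2105, 1874, 2055 and 1830 in nontransgenic mice. It is the one gene of the 10 that rose, by 34.5% of the control mean (2644 ± 109 against 1966 ± 134, log2(fold change) 0.43, SE 0.08, 95% interval 0.26 to 0.60, adjusted p = 0.00217, limma). Cacng3 went the other way, with 1351, 1243, 1450 and 1449 in bigenic mice and 2208, 2009, 2191 and 1734 in controls. It fell by 32.5% of the control mean (1373 ± 98.5 against 2036 ± 220.3, log2(fold change) -0.56, SE 0.10, 95% interval -0.78 to -0.35, adjusted p = 0.00195, limma). Both calls held with each mouse left out, at adjusted p of at most 0.0112 and 0.00959. Because counting is not stated to use strand, reads of a gene model that overlaps exons of Cacng2 on the other strand cannot be told apart from its own. Annotated models also overlap exons of Gria2, Gria3 and Gria4 on the same strand, with the same limit.

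The summed normalized counts of these 3 TARPs overlapped between groups (4540 ± 233 in bigenic mice, 4440 ± 326 in controls). This sum was not divided by length, and annotated exons cover 5510 bases in Cacng2 but 1523 in Cacng3. It therefore does not show whether the rise and the fall offset each other in number of transcripts. The ratio of Cacng2 to Cacng3 did not overlap between groups: it ran from 1.84 to 2.1995 in bigenic mice and from 0.933 to 1.055 in controls.

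TARP γ-8, encoded by Cacng8 (uc009euw.1, chr7:3394567-3415366, plus strand), is best known from the hippocampus, where it is abundant. Its normalized counts were 382, 798, 466 and 447 in bigenic mice and 429, 430, 420 and 476 in controls. The value of bigenic mouse 2 is far above the other 7, which all lie within 382 to 476. Cacng8 did not pass the test (523 ± 187 against 439 ± 25.2, log2(fold change) 0.20, 95% interval -0.24 to 0.63, adjusted p = 0.457, limma), and without that mouse the value was -0.03. It is also the most thinly sampled of the 10, at 289 to 690 reads per mouse. Counting error alone gives a coefficient of variation of 5.88% at 289 reads, a number reached in a bigenic mouse. It is smaller at the higher read numbers of the other mice, controls included. The measured coefficient of variation was 5.75% among controls and 35.7% among bigenic mice.

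The cornichons help receptors leave the endoplasmic reticulum and slow their closing. Cnih2 (uc008gce.1, chr19:5092871-5098418, minus strand) held 1078, 840, 1098 and 1111 normalized counts in bigenic mice against 1283, 1538, 1418 and 1287 in controls. Every bigenic mouse lies below every control, with mouse 2 lowest. The means were 1032 ± 129 and 1382 ± 122 (log2(fold change) -0.43, SE 0.11, 95% interval -0.67 to -0.18, adjusted p = 0.0134, limma). The adjusted p stayed between 0.00471 and 0.0471 with each mouse left out, so Cnih2 passed in each case.

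Cnih3 (uc007dxh.2, chr1:183282759-183390772, plus strand), the closest relative of Cnih2 in this set, stood at 1332, 1123, 1455 and 1474 in bigenic mice and at 1407, 1275, 1483 and 1353 in controls. These values overlap, and the test was not passed (1346 ± 161 against 1380 ± 87.7, log2(fold change) -0.04, 95% interval -0.26 to 0.18, adjusted p = 0.767, limma). With array weights the sign turned to 0.07. The ratio of Cnih2 to Cnih3 lay between 0.748 and 0.809 in bigenic mice and between 0.912 and 1.21 in controls.

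GSG1L belongs to the wider claudin family, like the TARPs, but slows recovery of the receptor from desensitization and dampens its current. Gsg1l (uc009jqp.2, chr7:133021933-133225925, minus strand) measured 987, 976, 946 and 800 normalized counts in bigenic mice and 1929, 2068, 2118 and 1934 in nontransgenic mice. No bigenic mouse comes near the lowest control. With 927 ± 86.6 against 2012 ± 95.5, Gsg1l fell by 53.9%, and its log2(fold change) of -1.12 (SE 0.09, 95% interval -1.31 to -0.93, adjusted p = 3.176e-05, limma) is the largest of the 10 in size. Its interval overlaps that of Gria3, and the difference between these 2 genes was not tested. The adjusted p was at most 0.000334 with any mouse left out. Gsg1l and Gria3 are also the 2 genes of the 10 that passed with a minimum change of 1.5-fold added to the threshold.

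The 10 genes are mostly long. Their spans run from 5.55 kb (Cnih2) to 378.34 kb (Gria4), and 8 of the 10 are above the upper quartile of 68.94 kb for genes tested. Both Gria4, which did not pass, and Gria3, which fell, are among the longest. TDP-43 prefers UG repeats, so the letters TGTGTG were counted on the sense strand of each whole gene, introns included, with overlapping matches counted separately. All 10 genes hold this motif, as do 97.51% of genes with an annotated span. Its density per kb was 2.74 in Gria1, 1.23 in Gria3, 2.24 in Cacng3, 3.06 in Cnih2 and 2.63 in Gsg1l, which fell, and 2.85 in Cacng2, which rose. In the genes that did not pass, it was 1.93 in Gria2, 1.46 in Gria4, 3.99 in Cacng8 and 2.68 in Cnih3, so the ranges overlap. The quartiles over all genes with an annotated span were 1.096 and 2.52.

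A further 25 genes encode other proteins found in AMPA receptor complexes or needed to build them, and 23 of these were tested. Of those, 10 fell, 5 rose and 8 did not pass, so 65.2% were called against 35.9% of all genes. The median log2(fold change) was -0.29, against 0.03 over all genes. The 5 with the smallest adjusted p all fell. Nrn1, which encodes the membrane-anchored neuritin, had 2244, 2577, 2928 and 2776 normalized counts in bigenic mice and 6127, 5388, 6260 and 5409 in controls (log2(fold change) -1.14, SE 0.10, adjusted p = 4.777e-05, limma). Its range lies wholly below the controls. The others were Olfm1 (-0.54) and Olfm3 (-0.67), which encode secreted olfactomedins, Lrrtm4 (-0.56), a synapse organizer, and Frrs1l (-0.51, listed as 6430704M03Rik), which assists receptor assembly in the endoplasmic reticulum. The number that rose depends on single mice: it was 2 without bigenic mouse 4 or without nontransgenic mouse 2, and 3 without bigenic mouse 3 or nontransgenic mouse 1 or 3, while the number that fell stayed between 9 and 11.

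Among 27 tested genes for scaffolds and for trafficking of the receptor, 10 fell, 4 rose and 13 did not pass (51.9% called against 35.9% of all genes, median -0.11). The 3 with the smallest adjusted p did not share a direction. Kif5b, a kinesin that carries receptor cargo along dendrites, rose from 11130 ± 269.8 to 19526 ± 916 normalized counts (log2(fold change) 0.81, SE 0.06, adjusted p = 3.466e-05, limma). Napa, the α-SNAP that works with NSF on receptor and vesicle complexes, rose by 0.83, whereas its brain-rich relative Napb fell by 0.50 on the log2 scale. With each mouse left out, 9 or 10 fell and 4 or 5 rose.

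Among 23 tested genes for enzymes that edit, phosphorylate, palmitoylate or ubiquitinate the subunits, 10 fell, 2 rose and 11 did not pass (52.2% called against 35.9% of all genes, median -0.10). The leading 3 all fell: Prkcb, a protein kinase C (-0.99), and the calcineurin catalytic subunits Ppp3ca (-0.98) and Ppp3cb (-1.45). Ppp3cb went from 8747 ± 629 to 3244 ± 649 normalized counts (SE 0.14, adjusted p = 9.488e-05, limma). Adarb1, which encodes ADAR2, the enzyme that edits the Q/R codon of Gria2 shown in capitals above, did not pass the test. It was at 6253, 5596, 6355 and 6353 normalized counts in bigenic mice and at 5883, 6098, 5740 and 5479 in controls, and the groups overlap (log2(fold change) 0.08, 95% interval -0.08 to 0.24, adjusted p = 0.403, limma). It was named for its role and after its value was seen.

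The other ionotropic glutamate receptors serve as a comparison. Of 15 tested subunits and auxiliaries of NMDA, kainate and delta receptors, 3 fell, 2 rose and 10 did not pass, a share called of 33.3%, near the 35.9% of all genes. The median was -0.09. Those with the smallest adjusted p were Grin3a (-0.62), an NMDA receptor subunit that lowers calcium entry, the kainate receptor subunit Grik1 (-0.49), and Neto2 (-0.56), a kainate receptor auxiliary. The 2 that rose, Grin1 at 0.47 and Grik5 at 0.22 (both named after their values were seen), lost their calls without nontransgenic mouse 1, 2 or 3, and Grik5 also without bigenic mouse 3 or 4. The difference between this list and the AMPA receptor genes was not tested.

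**Figure D4:**
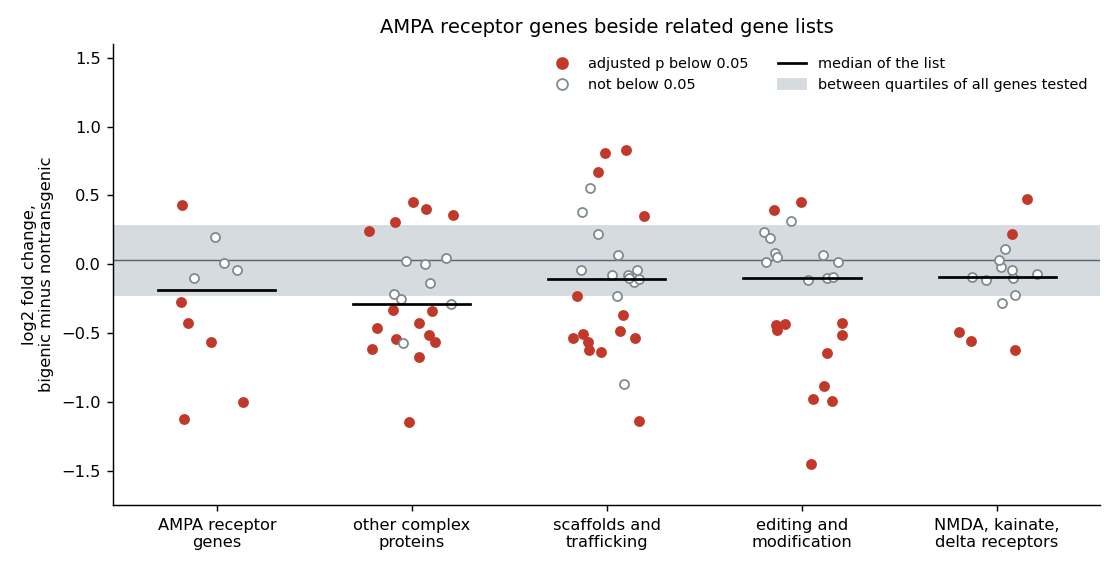
log2(fold change), bigenic minus nontransgenic (vertical axis), of each tested gene in 5 lists, with calls at an adjusted p below 0.05 filled; black bars mark the median of each list, the line the median of all genes tested and the grey band the span between their quartiles. The medians of all lists lie between -0.29 and -0.09, and each list holds genes on both sides of 0.

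Among the 5 genes whose levels over the 8 mice were most like those of Gria3, by Pearson's r of log2 values, were Ppp3r1 (r = 0.9989), Actr2 (0.997), Zfp365 (0.9969) and Kifap3 (0.9968). The 8 mice fall into 2 separate groups, which sets most of such an r, so this is a ranking and not a test. These 4 genes were lower in bigenic mice. Ppp3r1, the regulatory subunit of calcineurin, stood at 11155 ± 674 against 23203 ± 1678 normalized counts (log2(fold change) -1.056). The others were Actr2 (-0.58), Zfp365 (-1.68) and Kifap3 (-0.91). Pearson's r does not depend on the size of a change, so the ranking says nothing about likeness in size.

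Markers of cell types were read in the same fit, again against 35.9% called among all genes. Slc17a7, the vesicular glutamate transporter of cortical excitatory neurons, was at 14742 ± 2477 against 13168 ± 547 (log2(fold change) 0.15, adjusted p = 0.327, limma). Over the 12 excitatory markers 1 rose and 3 fell (33.3% called), and their summed level lay between 48340 and 68198 in bigenic mice and between 77769 and 84895 in controls. Such sums are of normalized counts, so the most abundant genes of a list weigh most in them. Camk2a (named after its values were seen), at 25620 ± 3541 against 46892 ± 2103, makes up a large part of this sum. The sum therefore does not show a fall across the excitatory markers. Camk2a is also counted among the modifying enzymes above. Of 13 tested interneuron markers 6 fell and none rose (46.2% called, sums 22092 to 23785 against 26458 to 28580), and the number that fell was 3 without nontransgenic mouse 2. Gad1, which makes GABA, was among them (-0.19, adjusted p = 0.0453, limma) but passed in 2 of the 8 fits that leave out a mouse. For pan-neuronal markers 3 of 11 were higher and 4 lower (63.6% called, sums 145815 to 198632 against 160338 to 179970). These counts rest on single libraries. The number lower was 1 without any one mouse other than bigenic mouse 2, where it was 5, and nontransgenic mouse 2, where it was 2. The number higher was 1 without nontransgenic mouse 1 or 2.

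Outside neurons, 4 of 12 astrocyte markers fell and none rose (33.3% called, sums 128386 to 147840 against 156497 to 168013), with Gfap at 2471 ± 686 against 2336 ± 220.0 (adjusted p = 0.863, limma). For microglia 5 of 10 fell (50.0% called, sums 6116 to 8135 against 8231 to 9539), Cx3cr1 among them (-0.56, adjusted p = 0.00156, limma), and 8 fell without bigenic mouse 1. Oligodendrocyte and endothelial markers gave 1 call each, with 1 of 12 higher (8.33%, sums 68528 to 90973 against 70013 to 86979) and 1 of 7 lower (14.3%, sums 5239 to 6259 against 6232 to 6864). Both of these single calls depend on which mice are used. No oligodendrocyte marker was higher without bigenic mouse 1 or nontransgenic mouse 1, 2 or 3, and the endothelial call stayed only without bigenic mouse 2 or without nontransgenic mouse 4.

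Among markers of tissue next to the cortex, Ttr of the choroid plexus was at 13603 ± 4959 against 724 ± 339.5 (4.34, adjusted p = 0.000109, limma). Of 8 listed choroid plexus markers only 4 passed the filter on low values, and 3 of these rose (sums 13923 to 28918 against 6517 to 8161). Besides Ttr, the 2 that rose passed the filter through bigenic mice alone, with at most 99 normalized counts in any control. A filter met by any one mouse favours such genes, so this count does not give the share of choroid plexus markers that rose. Of 6 tested hippocampal markers 1 rose and 2 fell (50.0% called, sums 2480 to 3294 against 3347 to 3881). The most abundant of them went opposite ways (both named after their values were seen). Wfs1 was at 824 ± 52.5 in bigenic mice against 2202 ± 288 in controls, and Bok at 1050 ± 397 against 384 ± 72.9. The lower sum thus depends on Wfs1 and gives no direction for hippocampal markers as a set. Striatal markers gave 1 call of 9 (11.1%, sums 5957 to 14266 against 7149 to 10647), a fall that was lost without bigenic mouse 3 or 4 or any nontransgenic mouse and became 3 without bigenic mouse 1. No tested marker was at 0 in all mice. The part of cell makeup or dissection in the changes of the AMPA receptor genes was not tested.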

How the data were processed

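Adaptors were removed by the authors (cutadapt), and reads that mapped to a single place in mm9 (Bowtie 0.12.7) were counted per exon and summed per gene (bedtools). The deposited signal is a whole number per transcript and mouse: reads scaled by one factor for each mouse, then rounded, so tests for raw counts were not run. What 1 read is worth was estimated from gaps between low values. A second deposited table, with the authors' DESeq2 log2 fold changes and p-values, was used for gene symbols; its comparisons were not used. Column names give the group of a mouse but no replicate number.

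A gene was tested if it reached 10 RPM of a column's total in any mouse. log2(normalized count + 1) was compared with limma 3.58.1 (lmFit, eBayes with trend) in R 4.3.3, all 8 mice in one fit without covariates, with Benjamini-Hochberg adjustment over 10588 genes and a threshold of 0.05. The script was tested on simulated data. The replicates were separate mice. Positions, lengths and sequences are from mm9 with its GENCODE annotation, which holds 97.25% of genes tested. The counting error given assumes independent reads. Python 3.11.15, numpy 2.4.6, pandas 2.3.3 and matplotlib 3.10.9 were used.

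The members and lists were chosen with earlier results of these data known. Genes named are all 10 members, the 5 (other complex proteins) or 3 (other lists) of smallest adjusted p per list, the 5 most like the member of smallest adjusted p, Tardbp, uc999vvf.1 and defining markers; others are marked as named after their values were seen, and 2 genes under this rule are not reported here. Alternatives were pseudocounts of 0.1 and 10, other filters and scalings, array weights, a stricter threshold, a minimum fold, another length for shares, and leaving out each mouse.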

Additional observations from a re-analysis of the deposited data

Results flagged for a closer look

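A gap test for a single far value (Dixon, 95% level) was run on 76 groups of 4 mice, those of the genes named above, and 5 groups had one. By chance about 1 in 20 groups would. Among the AMPA receptor genes, Cnih2 was at 840 normalized counts in bigenic mouse 2, against 1078 to 1111 in the other bigenic mice, a gap of 0.878 of the whole range. Adarb1 was also lowest in that mouse, at 5596 against 6253 to 6355 (0.866 of the range). Cx3cr1, the microglial marker, was at 881 in bigenic mouse 3, against 802 to 809 (0.911). The other 2 values were in controls: Lrrtm4 at 564 in nontransgenic mouse 4, against 639 to 652 (0.852), and Grin3a at 739 in nontransgenic mouse 3, against 872 to 883 (0.924). The bigenic and control values overlapped for Adarb1 and not for the other 4 genes.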

How the results depend on the processing

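Gria3, Cacng2, Cacng3, Cnih2 and Gsg1l kept their direction and their call at an adjusted p below 0.05 under the pseudocounts, filters, scalings and array weights tried and without each mouse. Gria1 kept its direction, with -0.31 to -0.24 on the log2 scale and an adjusted p of 0.00379 to 0.0562 (limma) without each mouse. Gria2 was 0.089 after quantile normalization and -0.16 with array weights (called), and -0.15 to -0.060 without each mouse. Gria4 was -0.015 after quantile normalization, -0.029 with array weights and -0.034 to 0.042 without each mouse. Cnih3 was 0.068 with array weights and -0.088 to 0.043 without each mouse, and Cacng8 -0.027 to 0.33. Of the 10 genes, between 5 and 7 were called without each mouse, 4 at an adjusted p below 0.01 and 2 at 1.5-fold or more. Over all genes the calls were 6455 with array weights, 2057 below 0.01, 1314 at 1.5-fold or more and 2654 to 4782 without each mouse. The NMDA, kainate and delta list had 3 to 5 calls without each mouse. By the longest transcript, shares moved to 24.6% for Gria1 in controls, to 49.8% and 43.2% for Gria2 in bigenic mice and controls, and to 14.9% and 23.99% for Gria3. Quantile normalization took the share of calls that were higher from 57.09% to 52.07%, and no scaling moved the median of all genes by 0.1. The cause of these shifts was not tested. No paired analysis was possible because the mice are separate animals and the columns carry no number that ties a bigenic mouse to a control. The lowest depth was 289 reads, for Cacng8, where counting error is 5.88%. The coefficient of variation among bigenic mice, 35.7%, was larger and limits more what can be seen in that gene.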
